A study of Mus musculus with 6 samples.

Results

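The genes described here are 9 that make, break down or regulate polyamines: Odc1, Srm, Sms, Amd1, Sat1, Smox, Paox, Azin1 and Oaz1. They were taken by exact match of the gene column among 52459 rows of the deposited count table, and all 9 were found and passed the filter on low counts. RNA had been sequenced from mouse liver tumours of genotype MYC-LAP-tTA, in which a tetracycline transactivator under a liver promoter drives a MYC transgene that can be switched off. In 3 libraries the treatment was MYC activation (MYC-On), and in 3 it was MYC inactivation, sampled at day 4 (MYC-Off Day 4, here MYC-Off). Every library therefore carries the same transgenes, and the comparison is between the transgene switched on and switched off, with no normal liver beside it. The labels give no strain, age or sex, and do not say whether the 3 tumours of a group were taken from different mice. The p-values weigh the difference between the groups against the spread between the libraries of a group. That spread may be technical rather than between mice, so the p-values cover only these samples.

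Polyamines are small positively charged molecules that bind RNA and DNA and are needed by growing cells. Ornithine decarboxylase (Odc1) makes putrescine, the first polyamine, from ornithine. S-adenosylmethionine decarboxylase (Amd1) provides the aminopropyl groups that spermidine synthase (Srm) and spermine synthase (Sms) add to make spermidine and spermine. Breakdown runs the other way: the acetyltransferase Sat1 tags spermidine and spermine, the oxidase Paox cleaves the acetylated forms, and the oxidase Smox cleaves spermine directly. Antizyme (Oaz1) binds ornithine decarboxylase and sends it to the proteasome, and the antizyme inhibitor Azin1, a relative of the decarboxylase without its activity, releases it. Odc1 is a classical target gene of MYC, and liver is a main site of ornithine and methionine metabolism.

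In outline, the 4 synthesis genes fell when MYC was off, and the pair of antizyme genes did not pass the test. The 3 breakdown genes rose, but their calls changed with the scaling of the libraries and with single libraries. The promoter sequences are shown first. MYC with its partner MAX binds the DNA letters CACGTG, known as an E-box, and also the variant CACGCG. Whether MYC bound these promoters here was not tested. The RefSeq promoter table (GRCm38.p6) held 7 of the 9 genes, and Srm and Azin1 were not among them. The 250 bases before the start are printed 5′ to 3′ on the gene's own strand for the 3 synthesis genes with an entry and for Sat1, the most abundant breakdown gene, with capitals for CACGTG, or for CACGCG read on either strand (CGCGTG on the other one).
Odc1, chr12:17544623-17544872, plus strand: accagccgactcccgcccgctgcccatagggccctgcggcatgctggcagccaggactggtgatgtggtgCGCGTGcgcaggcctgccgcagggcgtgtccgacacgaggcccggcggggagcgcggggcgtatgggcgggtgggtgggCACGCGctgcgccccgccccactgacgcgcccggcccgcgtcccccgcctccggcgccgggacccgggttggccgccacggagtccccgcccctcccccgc
Sms, chrX:157492288-157492537, minus strand: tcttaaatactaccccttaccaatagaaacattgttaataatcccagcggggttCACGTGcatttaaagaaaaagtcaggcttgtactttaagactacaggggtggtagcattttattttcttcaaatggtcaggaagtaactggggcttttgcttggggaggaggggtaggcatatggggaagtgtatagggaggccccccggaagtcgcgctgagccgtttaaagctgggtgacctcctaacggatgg
Amd1, chr10:40302189-40302438, minus strand: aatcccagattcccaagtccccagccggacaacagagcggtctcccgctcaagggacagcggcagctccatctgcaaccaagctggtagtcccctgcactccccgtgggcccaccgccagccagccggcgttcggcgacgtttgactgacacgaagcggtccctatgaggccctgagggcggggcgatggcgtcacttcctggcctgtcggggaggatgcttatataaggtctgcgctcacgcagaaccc
Sat1, chrX:155216450-155216699, minus strand: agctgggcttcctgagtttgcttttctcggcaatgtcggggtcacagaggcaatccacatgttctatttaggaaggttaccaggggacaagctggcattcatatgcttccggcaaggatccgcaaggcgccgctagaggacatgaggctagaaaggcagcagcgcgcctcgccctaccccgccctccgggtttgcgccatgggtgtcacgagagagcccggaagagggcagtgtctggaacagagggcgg
The Odc1 window held CACGCG beginning 101 bases and its reverse form beginning 180 bases before the start. The Sms window held CACGTG 196 bases before the start, and a second annotated Sms start, not printed, had CACGCG at 140 bases. No such letters stood in these windows of Amd1, Sat1, Smox or Paox, while Oaz1 had CACGCG at 212 bases. RefSeq starts differ from the gene coordinates given below for some genes. The Smox window (from 131491612) and the Paox windows (from 140125407) lay inside genes that begin at 131491496 and 140115799. Bases directly before those 2 gene beginnings were not searched. The Odc1 window lay partly inside its gene. Among all 32536 distinct windows of this length, 6.04% held CACGTG and 7.67% held CACGCG. A match describes the letters only, and E-boxes elsewhere, such as those known in the first intron of Odc1, are outside these windows.

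The libraries held 16292718 to 19265623 reads each, so 1 read was worth 0.0519 to 0.0614 CPM (reads per gene relative to the library total) before scaling. Values below are CPM after TMM scaling, which corrects for a few genes taking many reads, and folds are MYC-Off relative to MYC-On. Such a correction was large here, since the 20 most abundant genes took 11.7% to 19.2% of reads in MYC-On and 29.9% to 39.1% in MYC-Off. The TMM factors were 1.25 to 1.36 in MYC-On and 0.68 to 0.99 in MYC-Off. All values are relative to the sequenced RNA of a library, and RNA per cell was not measured. Myc itself stood at 779, 1018 and 854 CPM in MYC-On replicates 1, 2 and 3 and at 74.8, 10.2 and 18.7 CPM in MYC-Off, highest in MYC-Off replicate 1. In bulk tumour RNA, fewer cells of a type and less RNA per cell cannot be told apart. Markers of mature hepatocytes moved with the groups, with all 7 measured genes higher and a sum of 3172 to 6813 CPM in MYC-On and 80058 to 243437 CPM in MYC-Off. Macrophage markers were higher for 8 of 9 genes, with sums of 586 to 1144 CPM in MYC-On and 2040 to 8174 CPM in MYC-Off. Stellate and fibroblast markers were higher for 6 of 6 tested genes (128 to 140 against 769 to 1322 CPM), T cell markers for 5 of 5, erythroid markers for 4 of 4, neutrophil markers for 3 of 3 (2.05 to 3.06 against 92.2 to 145 CPM), endothelial markers for 3 of 4 and B cell markers for 1 of 1. Of 4 cholangiocyte markers 1 was higher and 1 lower. No marker of these lists was at 0 throughout a group, and the part of these cell types in the values below was not tested.

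Of the 9 polyamine genes 4 were lower and 3 higher in MYC-Off at an adjusted p of 0.05 (quasi-likelihood test of edgeR, Benjamini-Hochberg adjusted over 14130 genes). Across all tested genes 52.7% were called, 22.8% lower and 29.9% higher, so the number of members called is not far above that background. The calls split by role, as the values below show. The 3 higher calls changed with the scaling and with single libraries, and 0 remained with library size as the only scaling. The median log2 fold change of the 9 genes was -0.12, beside 0.18 for all tested genes. The 2 groups did not overlap for 7 of the 9 genes, and for 63.1% of all tested genes.

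**Figure D1:**
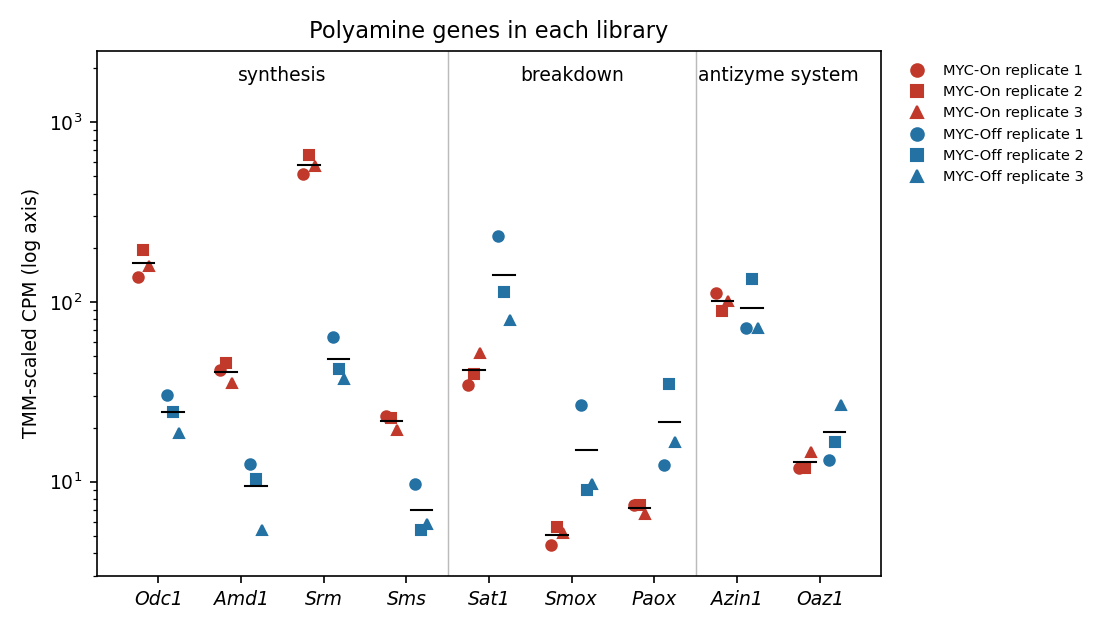
TMM-scaled CPM (log axis) of the 9 polyamine genes in 3 MYC-On (red) and 3 MYC-Off (blue) libraries; symbols give the replicate and bars the group mean. The 4 synthesis genes lie lower in every MYC-Off library, the 3 breakdown genes lie higher, and Azin1 and Oaz1 overlap between the groups.

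Ornithine decarboxylase fell. Odc1 (ENSMUSG00000011179.8, chromosome 12, 17544794 to 17551505, plus strand, mm10) stood at 137, 196 and 159 CPM in MYC-On replicates 1, 2 and 3 and at 30.3, 24.5 and 18.6 CPM in MYC-Off. All 3 MYC-Off values lay far under the lowest MYC-On value. The log2 fold change was -2.74 (SE 0.28, adjusted p = 0.00087, edgeR), a 6.69-fold decrease from 164 ± 29.5 to 24.5 ± 5.84 CPM (SD, n = 3). Only 3.67% of tested genes had a lower log2 fold change.

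Spermidine synthase had the largest fall among the 9 genes. Srm (ENSMUSG00000006442.10, chromosome 4, 148591503 to 148594993, plus strand) stood at 514, 654 and 571 CPM in MYC-On and at 63.6, 42.6 and 37.4 CPM in MYC-Off. The groups were again widely apart, with the highest MYC-Off value in replicate 1. The mean of 580 ± 70.2 CPM (SD, n = 3) in MYC-On compared with 47.9 ± 13.8 CPM in MYC-Off, a 12.1-fold decrease. On the log2 scale this was -3.60 (SE 0.34, adjusted p = 0.00084, edgeR).

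Amd1 and Sms fell less far. Amd1 (ENSMUSG00000075232.5, chromosome 10, 40287458 to 40302186, minus strand) stood at 41.7, 46.0 and 35.3 CPM in MYC-On and 12.6, 10.4 and 5.38 CPM in MYC-Off. Its groups did not overlap, and the lowest value was in MYC-Off replicate 3. The log2 fold change was -2.11 (SE 0.35, adjusted p = 0.0030, edgeR). Sms (ENSMUSG00000071708.11, chromosome X, 157443855 to 157492287, minus strand), which makes spermine, stood at 23.3, 22.6 and 19.4 CPM in MYC-On and 9.67, 5.36 and 5.84 CPM in MYC-Off. Its fall was the smallest of the 4 (-1.64, SE 0.32, adjusted p = 0.0051, edgeR), or 3.12-fold. MYC-Off replicate 1 had the highest MYC-Off value of Odc1, Srm, Amd1 and Sms alike, and also the highest Myc value of its group. Sat1 and Smox were highest in that library too. Between MYC-Off replicates 2 and 3, Myc was higher in replicate 3 (18.7 against 10.2 CPM). Odc1, Srm and Amd1 were higher in replicate 2, and Sms in replicate 3. A link of these levels to Myc was not tested. Each of the 4 synthesis genes passed the test under all 16 other settings, whose log2 fold changes ran from -3.43 to -2.65 for Odc1, -4.27 to -3.52 for Srm, -2.79 to -1.91 for Amd1 and -2.30 to -1.54 for Sms.

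The acetyltransferase Sat1 rose. Sat1 (ENSMUSG00000025283.15, chromosome X, 155213132 to 155216449, minus strand) stood at 34.6, 39.7 and 51.8 CPM in MYC-On and at 234, 113 and 79.0 CPM in MYC-Off. The lowest MYC-Off library was above the highest MYC-On library, and MYC-Off replicate 1 stood well above the other two. The log2 fold change was 1.76 (SE 0.42, adjusted p = 0.012, edgeR), a 3.38-fold increase, and 1.05 without MYC-Off replicate 1 (adjusted p = 0.016). The macrophage marker sums of MYC-Off replicates 1, 2 and 3 were 8174, 3085 and 2040 CPM, in the same order as Sat1. Erythroid marker sums (2280, 1633 and 665 CPM) and B cell marker sums (41.6, 3.67 and 1.54 CPM) had this order too, and T cell, endothelial, and stellate and fibroblast sums were also highest in replicate 1. The part of any of these cells in the Sat1 reads was not tested.

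Both oxidases rose from low levels. Smox (ENSMUSG00000027333.18, chromosome 2, 131491496 to 131525922, plus strand) stood at 4.45, 5.61 and 5.18 CPM in MYC-On and at 26.6, 8.95 and 9.68 CPM in MYC-Off, so that MYC-Off replicate 1 accounted for much of the mean. Its log2 fold change was 1.57 (SE 0.48, adjusted p = 0.029, edgeR), and 0.73 without MYC-Off replicate 1 (adjusted p = 0.080), where the call was lost. Paox (ENSMUSG00000025464.15, chromosome 7, 140115799 to 140137224, plus strand) stood at 7.44, 7.41 and 6.61 CPM in MYC-On and at 12.4, 35.1 and 16.7 CPM in MYC-Off. In contrast to Sat1 and Smox, its highest value was in MYC-Off replicate 2, and replicate 1 was its lowest MYC-Off library. Its log2 fold change was 1.58 (SE 0.42, adjusted p = 0.017, edgeR), and 0.94 without MYC-Off replicate 2 (adjusted p = 0.048). An end of Paox overlaps exons of Echs1, on the other strand, and Echs1 changed by 1.14 (adjusted p = 0.029, edgeR). The strand setting is not given in the sources used here, and the part of Echs1 reads in the Paox count was not tested.

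The calls of the breakdown genes changed with the scaling and with single libraries. Library size as the only scaling shifted the median over all tested genes by -0.74 (log2), which lowers every rise and deepens every fall. On that scale Sat1, Smox and Paox were still higher (1.15, 0.98 and 0.77) but none passed (adjusted p = 0.092, 0.20 and 0.13, edgeR). At an unadjusted p under 0.05 the count of higher members there was 0, while DESeq2 and limma-voom with their usual scaling each called 3. Divided by exon length and scaled to each library's total, without TMM, Sat1, Smox and Paox each overlapped between the groups. Smox then stood at 4.23, 6.33 and 4.30 in MYC-On and 16.6, 3.84 and 4.08 in MYC-Off. Only MYC-Off replicate 1 was thus above MYC-On for Smox. Without MYC-On replicates 1, 2 and 3 in turn, the adjusted p was 0.056, 0.058 and 0.037 for Sat1, 0.10, 0.084 and 0.092 for Smox, and 0.063, 0.065 and 0.071 for Paox.

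The antizyme pair did not pass the test. Azin1 (ENSMUSG00000037458.15, chromosome 15, 38487427 to 38519266, minus strand) stood at 112, 89.4 and 102 CPM in MYC-On and at 71.9, 134 and 72.0 CPM in MYC-Off. MYC-Off replicate 2 was above all MYC-On libraries and the other two were below them. Its log2 fold change was -0.12 with a 95% interval of -0.82 to 0.57 (adjusted p = 0.75, edgeR), and -0.89 with library size only (adjusted p = 0.031), where it passed. Without MYC-Off replicate 2 it was -0.56 (adjusted p = 0.084). Oaz1 (ENSMUSG00000035242.15, chromosome 10, 80826656 to 80829290, plus strand) stood at 12, 11.9 and 14.7 CPM in MYC-On and at 13.1, 16.5 and 26.7 CPM in MYC-Off. The groups overlapped, with the highest value in MYC-Off replicate 3. The log2 fold change of 0.55 had an interval of -0.22 to 1.31 (adjusted p = 0.19, edgeR), and it was 0.11 without MYC-Off replicate 3 and -0.24 with library size only. A p that misses the threshold does not show that the pair was steady. Exons of Azin1 overlap those of the antisense gene Gm49077, and Gm49077 was not analysed here.

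Ratios of 2 genes within the same library do not depend on scaling between libraries, and 4 were computed from raw reads with 0.5 added to each count. Srm had 14.8, 16.5 and 11 reads for each Sat1 read in MYC-On and 0.27, 0.38 and 0.47 in MYC-Off. In raw reads the order of the synthesis gene and the breakdown gene was thus opposite in the groups, with a log2 difference of -5.25, or 38.1-fold. Raw reads also depend on exon length, which cancels only in the change between the groups. Per exon length Sat1 (205, 68.2 and 46.8) was still above Srm (96.5, 44.5 and 38.4) in each MYC-Off library, by less. Odc1 had 11.4, 16.4 and 10.8 reads for each read of its inhibitor Oaz1 in MYC-On and 2.30, 1.48 and 0.70 in MYC-Off (log2 difference -3.24). Srm also fell relative to Sms, from 22.0, 28.9 and 29.4 to 6.56, 7.91 and 6.37 reads (log2 difference -1.94). Of the ratios tested, only Azin1 to Oaz1 overlapped between the groups, at 9.30, 7.5 and 6.91 in MYC-On and 5.46, 8.09 and 2.69 in MYC-Off. The exact two-sided permutation test gave p = 0.1 for each of the first 3 ratios, the smallest it can give with 3 against 3 libraries, and p = 0.3 for Azin1 to Oaz1 (0.13 and 0.3 after Benjamini-Hochberg adjustment over the 4).

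**Figure D2:**
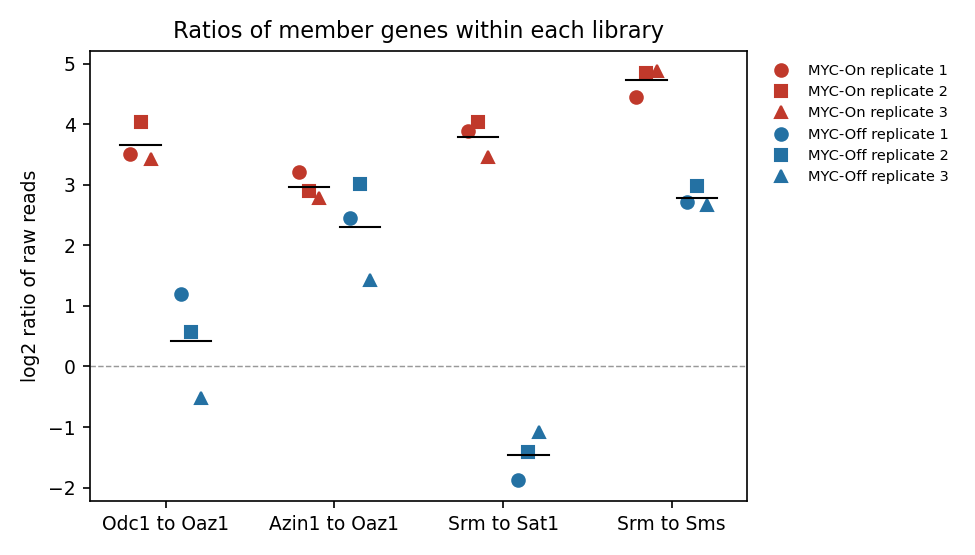
Log2 ratio of raw reads of 2 genes in the same library, for MYC-On (red) and MYC-Off (blue); symbols give the replicate, bars the group mean, and the dashed line equal reads. Srm exceeds Sat1 in all 3 MYC-On libraries (mean 3.8) and lies under it in all 3 MYC-Off libraries (mean -1.46).

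To compare levels between genes, reads were divided by exon length and scaled to the same total in each library (TPM), without TMM, so this scale serves only to order genes within a group. In MYC-On, Srm was highest at 1380 ± 361, followed by Odc1 at 184 ± 59.2. Azin1 (60.5), Sat1 (56.5) and Amd1 (44.3) came next, and neighbours among these 3 overlapped over the libraries. Oaz1 (18.8), Sms (13.8), Paox (5.53) and Smox (4.95) followed, and only the last 2 overlapped. In MYC-Off the leading genes were Sat1 at 107 ± 85.6 and Srm at 59.8 ± 31.9, which overlapped. Srm and Azin1 did not overlap. From there Azin1 (27.5), Odc1 (14.2), Oaz1 (13.5), Smox (8.18), Paox (7.89), Amd1 (5.34) and Sms (2.33) each overlapped with the next. Odc1 thus went from the second to the fourth place and Sat1 from the fourth to the first, although Sat1 was above Srm by ranges that overlap.

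**Figure D3:**
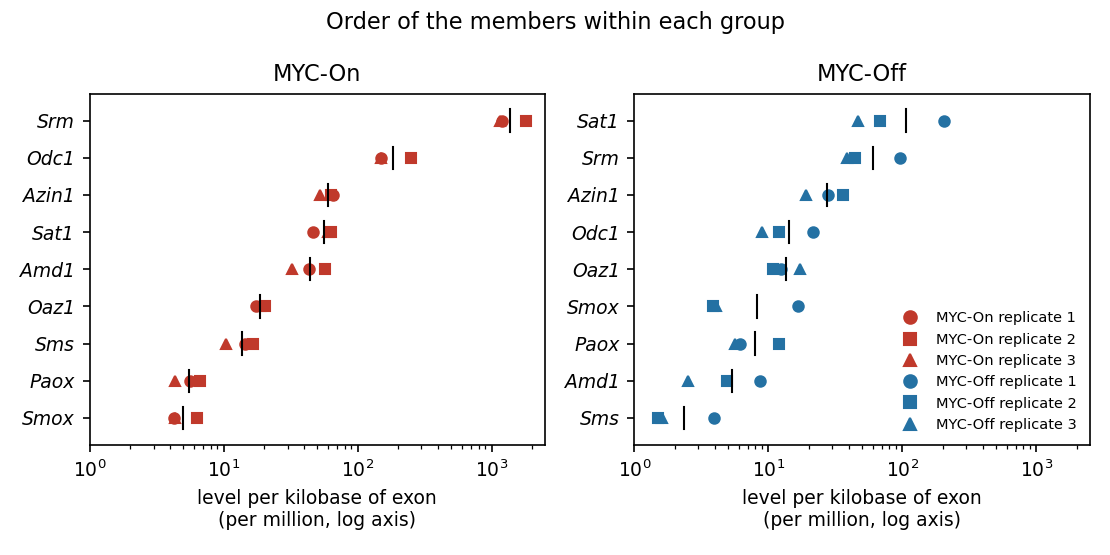
Level per exon length (TPM, log axis) of the 9 genes in the 3 libraries of each group, ordered by the group mean (black bar). Srm leads in MYC-On at a mean of 1380, and Sat1 and Srm lead in MYC-Off at 107 and 59.8 with overlapping values.

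Several of these genes have copies elsewhere in the genome, which bears on how many reads could be assigned to them. For the longest principal transcript of each gene, the share of its 50-base stretches that also occur in transcripts of other annotated genes was 87.6% for Amd1, 53.9% for Oaz1, 42.2% for Odc1, 28.9% for Paox, 28.7% for Sms, 7.28% for Sat1, 6.43% for Azin1, 2.40% for Srm and 0 for Smox. The copy of Amd1 was mainly Amd2 on the same chromosome (86.1%), that of Oaz1 the processed pseudogene Oaz1-ps on chromosome 17 (53.9%), and that of Sms the pseudogene Sms-ps (28.7%). Odc1 shared at least 1% with 14 genes, 13 of them processed pseudogenes. Reads counted on the copies differed between genes. Of the 14 genes that share with Odc1, 12 were in the count table. Together they had 132, 133 and 150 reads in MYC-On and 107, 87 and 52 in MYC-Off. This came to at most 27.2% of Odc1's own reads in a library, and these reads need not lie in the shared stretches. Amd-ps4 had 60, 80 and 52 reads in MYC-On and 14, 4 and 0 in MYC-Off. Amd2 had 10, 12 and 15 reads in MYC-On and 0, 2 and 5 in MYC-Off, against 715 to 1124 and 70 to 229 for Amd1, and Oaz1-ps had 22 to 32 and 18 to 22. How reads with several matches were treated is not given in the sources used here, so levels of Amd1, Oaz1 and Odc1 relative to other genes are uncertain. Srm and Smox were the least affected of the 9.

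By root mean square difference of centred log2 CPM over the 6 libraries, the genes with the pattern most like Odc1 were Mybbp1a (0.088), Nup85 (0.10) and Gar1 (0.10), among 12844 candidates. Mybbp1a is a nucleolar protein that binds MYB, Nup85 a nuclear pore subunit and Gar1 a protein of the box H/ACA particles that modify ribosomal RNA. Mybbp1a stood at 592, 787 and 569 CPM in MYC-On and 112, 92.4 and 73.0 CPM in MYC-Off. The other synthesis genes were farther from Odc1 than these, at 0.36 for Amd1, 0.45 for Srm and 0.59 for Sms, and the breakdown genes were at 2.09 to 2.21. With 2 groups of 3 the measure mainly reflects the size of the difference between the groups.

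The rest of the pathway was read from 28 further genes in 4 lists, of which 23 were tested. Of these, 7 were higher and 6 lower in MYC-Off, beside the background of 52.7% called, with a median log2 fold change of 0.23. Spermidine is also the donor for hypusine, a modified lysine of the translation factor Eif5a. In this list 3 of 4 genes fell, beside 22.8% of all tested genes. Eif5a, the factor itself, stood at 1347, 1314 and 1839 CPM in MYC-On and 466, 463 and 412 CPM in MYC-Off (log2 fold change -1.75, SE 0.33, adjusted p = 0.0049, edgeR). Dhps, which transfers the aminobutyl group of spermidine, changed by -1.17 (adjusted p = 0.011) and Dohh, which completes the modification, by -1.34 (adjusted p = 0.0036). The paralog Eif5a2 stood at 1.51, 2.82 and 1.43 CPM in MYC-On and 6.26, 1.38 and 1.69 CPM in MYC-Off and did not pass (0.70, adjusted p = 0.42, edgeR). Without MYC-Off replicate 1 Eif5a2 stood at -0.47. The groups of the 3 called genes did not overlap, which held for 63.1% of all tested genes. The median over all 4 genes was -1.25.

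**Figure D4:**
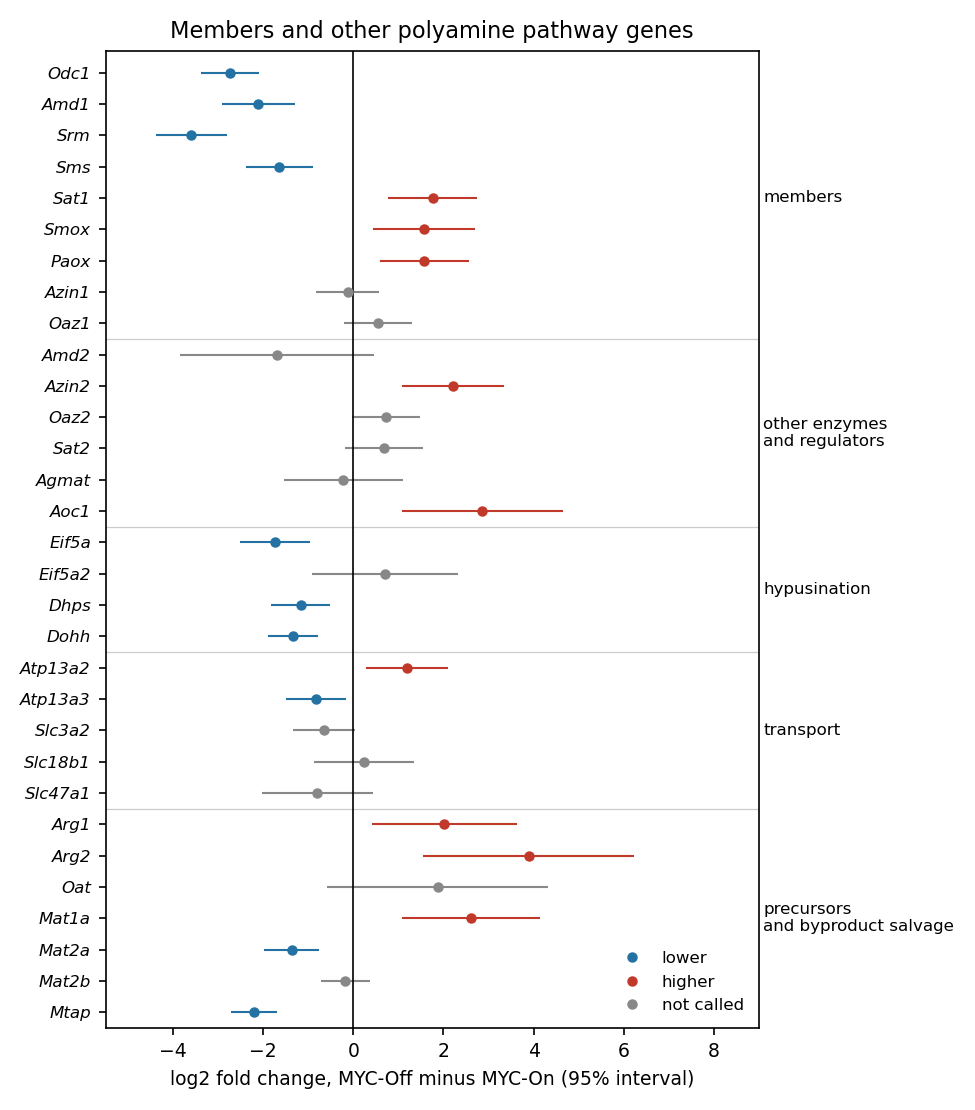
Log2 fold change (MYC-Off minus MYC-On) with its 95% interval for the 9 genes and tested genes of the other polyamine lists; blue is lower, red higher and grey not called at an adjusted p of 0.05. Odc1, Srm, Amd1, Sms, Eif5a, Mtap and Mat2a lie left of 0, and Sat1, Smox, Paox, Mat1a and Arg2 lie right of it.

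RNA levels changed among the isozymes that supply precursors, while the precursors themselves were not measured. S-adenosylmethionine, the source of the aminopropyl groups, is made by Mat2a in growing cells and by Mat1a in mature liver. Mat2a stood at 252, 260 and 220 CPM in MYC-On and 112, 98.2 and 72.4 CPM in MYC-Off (-1.37, SE 0.26, adjusted p = 0.0047, edgeR), while Mat1a went from 378, 167 and 419 to 668, 3063 and 2150 CPM (2.61, SE 0.66, adjusted p = 0.014). The 2 genes moved in opposite directions, each without overlap between its groups. The call of Mat1a was lost without MYC-On replicate 1 (adjusted p = 0.053) or replicate 2 (0.062). Mtap, which salvages the methylthioadenosine left over by Srm and Sms, fell from 148, 128 and 110 to 30.6, 25.4 and 28.0 CPM (-2.20, SE 0.22, adjusted p = 0.00085, edgeR). Its MYC-Off libraries were close together.

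Arginases, which make ornithine, were higher, but with wide spread. Arg1 stood at 291, 117 and 281 CPM in MYC-On and 285, 1694 and 813 CPM in MYC-Off (2.02, SE 0.69, adjusted p = 0.041, edgeR), and MYC-Off replicate 1 lay within the MYC-On range. Its call was lost with library size only (1.17, adjusted p = 0.10), without any one MYC-On library (adjusted p = 0.093, 0.14 and 0.10), without MYC-Off replicate 2 (1.14, adjusted p = 0.13) and without MYC-Off replicate 3 (adjusted p = 0.061). Arg2 rose from at most 0.31 CPM to 6.04, 1.22 and 1.00 CPM (3.89, adjusted p = 0.015, edgeR), and by 2.43 without MYC-Off replicate 1 (adjusted p = 0.033). Its call was lost without MYC-On replicate 2 (adjusted p = 0.064) or replicate 3 (0.065). Oat, which consumes ornithine, stood at 65.7, 38.6 and 59.9 CPM in MYC-On and 84.9, 501 and 15 CPM in MYC-Off and did not pass (1.87, adjusted p = 0.17, edgeR). Its value rested on MYC-Off replicate 2, without which it was -0.15, and without MYC-Off replicate 3 it passed at 2.27 (adjusted p = 0.025). Mat2b, the regulatory subunit paired with Mat2a, had a log2 fold change of -0.18 (adjusted p = 0.55), and -0.49 without MYC-Off replicate 1. In this list 3 of 7 genes rose and 2 fell, beside 29.9% and 22.8% of all tested genes. The hepatocyte marker sums were also higher in MYC-Off, at 80058, 149099 and 243437 CPM in replicates 1, 2 and 3. They were lowest in replicate 1, like Arg1 and Mat1a, but highest in replicate 3, where Arg1 and Mat1a were highest in replicate 2. The part of hepatocytes in these values was not tested.

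Of 9 listed transporters linked to polyamines 6 were tested. Atp13a2, which exports polyamines from lysosomes, rose from 31.3, 43.3 and 36.0 to 138, 63.2 and 52.8 CPM (1.20, adjusted p = 0.035, edgeR) and stood at 0.51 without MYC-Off replicate 1 (adjusted p = 0.096). It was highest in MYC-Off replicate 1, like Sat1 and Smox. Atp13a2 also lost its call without any one MYC-On library (adjusted p = 0.13, 0.082 and 0.11) and with library size only (0.58, adjusted p = 0.35). Its relative Atp13a3, the most abundant of the list, changed by -0.82 (adjusted p = 0.044, edgeR), and by -1.58 with library size only. This call was lost without any one MYC-On library (adjusted p = 0.14, 0.060 and 0.10) and without MYC-Off replicate 3 (-0.90). Slc3a2, the heavy chain of amino acid transporters, had a log2 fold change of -0.66 and did not pass (adjusted p = 0.096), although its groups did not overlap. It passed without MYC-Off replicate 1 (-1.12, adjusted p = 0.0043, edgeR) and with library size only (-1.31, adjusted p = 0.028).

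The remaining enzymes and regulators were mostly weakly expressed. Of 8 listed, 6 were tested and 2 rose, a share near the 29.9% of all tested genes. Azin2, the second antizyme inhibitor, rose from 0.31, 0.61 and 0.44 to 2.53, 2.14 and 1.77 CPM (2.22, adjusted p = 0.0081, edgeR), so that it remained far below Azin1 in reads (97 against 3996 over the MYC-Off libraries). Aoc1, the diamine oxidase that degrades putrescine, had 20 reads over the MYC-On libraries and 103 over the MYC-Off libraries (2.87, adjusted p = 0.017, edgeR). Without MYC-On replicate 1 the call was lost for Azin2 (adjusted p = 0.064) and Aoc1 (0.070), as it was for Aoc1 without MYC-On replicate 2 (0.085) and for Azin2 without MYC-On replicate 3 (0.053) and with library size only (0.056). Agmat, which is annotated to make putrescine from agmatine and was the most abundant of the list, stood at 106, 96.0 and 132 CPM in MYC-On and 57.0, 190 and 39.2 CPM in MYC-Off (-0.22, adjusted p = 0.76, edgeR). Its MYC-Off libraries lay on both sides of MYC-On, and without MYC-Off replicate 2 it passed at -1.27 (adjusted p = 0.018), while without MYC-Off replicate 3 it stood at 0.02. With library size only it was -1.02 and did not pass. Oaz2, a second antizyme, and Sat2 had log2 fold changes of 0.72 and 0.68 and did not pass (adjusted p = 0.096 and 0.16, edgeR). Oaz2 stood at 0.28 without MYC-Off replicate 1, Sat2 at 0.39 without MYC-On replicate 2, and with library size only they stood at 0.07 and -0.09.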

How the data were processed

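The authors deposited raw read counts per gene symbol, not normalized, for 6 mouse liver tumour libraries, 3 MYC-On and 3 MYC-Off Day 4. Per the submitters' processing notes, Trimmomatic, STAR, Picard, featureCounts and DESeq2 were used with the mm10 build; for versions, annotation, strand setting and multi-mapped reads, nothing is given in the sources used here. Tumours were frozen and RNA extracted with an RNeasy kit, per the labels' protocols. Total counts ran from 16292718 to 19265623 per library. Counting precision is set by these depths, and the spread between libraries is larger: every replicate pair differed by more than counting error (chi-square at least 29.1 times its degrees of freedom).

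Here edgeR 4.0.16 in R 4.3.3 was run on all rows: filterByExpr (minimum count 10, total 15), TMM, robust quasi-likelihood test, Benjamini-Hochberg adjustment at 0.05. Standard errors were derived as the fold change over the root of F. 26 rows whose symbol had become a date were kept under a row number. GENCODE mouse release 21 (mm10) gave coordinates and lengths, matching 91.7% of symbols. Alternatives used limma 3.58.1 and DESeq2 1.42.0, other scalings, filters, a replicate block and leaving out each library. Named genes were the 9 members, Myc, Echs1 (chosen after its overlap with Paox was seen), tested genes of 4 polyamine lists, near-copies, and the 3 genes nearest to Odc1. The members and lists were chosen with earlier results of these data known. Counts over the lists include 1 gene that is not reported here. Figures used matplotlib 3.10.9.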

Additional observations from a re-analysis of the deposited data

How the results depend on the processing

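The 4 synthesis genes were called lower under each of the 16 alternatives, and library size only added Azin1, giving 5. The number of higher members, 3, was 0 with library size only (0 also at an unadjusted p under 0.05, edgeR) and 0 at an adjusted p of 0.01 (3 at an unadjusted p under 0.05; DESeq2 and limma-voom called 3 at 0.05), and ran from 0 to 3 when leaving out 1 library each. Sat1, Smox and Paox kept their direction under every alternative. Oaz1 was at -0.24 with library size only, a scaling that shifted the median over all genes by -0.74 (log2) and the share of higher calls from 56.7% to 32.3%. Higher genes of the other lists, 7, numbered 4 with library size only, 2 at an adjusted p of 0.01, and 3 to 8 when leaving out 1 library each; lower ones, 6, numbered 4 to 9. With the replicate number as a block 4 genes of the other lists were higher, 5763 of all genes were called in place of 7443, and Smox was not called (adjusted p = 0.082). The labels do not say whether the numbers pair the samples, and 3 libraries per group are too few to settle it. Deviations of same-numbered libraries had correlations of -0.26, -0.17 and 0.04. No MYC-On library correlated best with its own number, and among the MYC-Off libraries only replicate 3 did. Log2 ratios kept their direction throughout, and Azin1 to Oaz1 stood at -0.24 without MYC-Off replicate 3. With the longest transcript as the length, 3 of 9 genes kept their place in the MYC-On order. Leaving out libraries, 7 to 9 kept it in MYC-On and 5 to 9 in MYC-Off, the 5 without MYC-Off replicate 1. The cause of these differences was not tested. Low depth limits Aoc1, Azin2, Arg2 and Amd2, which had at most 139 reads in a group.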
